A study of Mus musculus with 31 samples.

Results

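The genes described here act in T cell development and T cell receptor signalling. The list held 48 genes, set by name, with earlier results of these data known. Of these, 34 had a named spot, 55 spots in all. The whole table held 20794 spots, of which 12760 were named, for 9026 genes, and 8034 had no name. Expression was measured on dual-colour cDNA arrays in thymus, spleen, liver and brain of 4 male Dll1 mutant mice aged 17 weeks (m1 to m4), each hybridized together with a wild-type RNA pool of the same organ from males aged 18 weeks. Each mouse had 2 arrays per organ with the dyes swapped, except m2 in thymus, which had 1 array with the mutant RNA in Cy5, so that thymus had 7 arrays and each other organ 8. The labels do not name the allele or its zygosity. The study describes heterozygous animals of a line in which a lacZ insertion disrupts Dll1, backcrossed to the C3HeB/FeJ strain, but it differs from the labels in age, number of mice and platform, and whether the same samples are meant could not be settled. The pool was 1 control RNA per organ, so the spread among wild-type mice was not measured.

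The values are deposited log2 ratios. They were read as mutant over wild-type pool, which is not stated. The opposite reading would turn every sign below. Read as Cy5 over Cy3 instead, 19 of 31 mean ratios of single spots would change sign, as given in the last section. Gene names were inferred, since each spot took the gene listed 11 places earlier in the probe table. In the last of the 20 parts of the table this naming is uncertain, which concerns Cd3e, Cd4, Cd5, Cd28, Egr1, Fyn, Il7r and 1 of the 2 Cd7 spots. Outside it the names are not certain either. A displacement of 11 places gave the highest mean correlation between probes of the same gene in 13 of the 20 parts. A spot number below is its place in the table. Arrays held between 12693 and 20649 values, and the sparse ones were both arrays of m1 spleen and 1 of m4 brain. Log2 ratios spread wider on the lone m2 thymus array (SD 0.94) than on the other thymus arrays (SD 0.45 to 0.66). The m2 array lacked 8.4% of its values, against 0.7% to 2.5% on the others. Signal over background is unknown.

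T cells arise in the thymus from progenitors that receive a Notch signal from the thymic stroma, which switches on a T lineage programme run by transcription factors such as Tcf7, Gata3 and Bcl11b. The developing cells rearrange their antigen receptor genes, show the receptor together with the CD3 chains and the coreceptors CD4 and CD8, and are selected by the strength of signals passed on by the kinases Lck, Fyn and Zap70 and by adaptors such as Lat. Delta-like 1, the product of Dll1, is a Notch ligand. In the mouse thymus the ligand that T lineage commitment needs is Delta-like 4, and Delta-like 1 is known for its part in marginal zone B cells of the spleen.

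Of the 7 spots of the T cell receptor complex, 6 lay below 0 in m1 thymus, 2 in m2, 6 in m3 and 0 in m4. The sequences before the start sites of its genes are shown here as a description. Any link between these sequences and the ratios was not tested. The windows hold the 250 bases before each RefSeq start on build GRCm38.p6. Capitals mark matches on either strand to 6 motifs. The letters for RBPJ, the protein that carries the Notch signal to DNA, were TGGGAA. The letters for the RUNX factors were TGTGGT. For the factors TCF1 and LEF1, which open genes of the T lineage, CTTTGA was searched. For the GATA factors it was AGATAA. An E-box, the element of E proteins, was searched as CAGCTG. The letters for the ETS family were CAGGAA. Cd3d, Cd3e and Cd3g encode the CD3 delta, epsilon and gamma chains, and Cd247 encodes the zeta chain that carries the signal into the cell.
Cd3d (chr9:44981536-44981785, forward strand): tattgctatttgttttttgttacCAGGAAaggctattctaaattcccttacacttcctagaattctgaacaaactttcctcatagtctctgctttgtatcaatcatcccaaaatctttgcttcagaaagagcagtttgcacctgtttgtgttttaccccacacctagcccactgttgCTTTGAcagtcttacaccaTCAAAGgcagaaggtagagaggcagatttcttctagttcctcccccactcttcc
Cd3e (chr9:45009612-45009861, reverse strand): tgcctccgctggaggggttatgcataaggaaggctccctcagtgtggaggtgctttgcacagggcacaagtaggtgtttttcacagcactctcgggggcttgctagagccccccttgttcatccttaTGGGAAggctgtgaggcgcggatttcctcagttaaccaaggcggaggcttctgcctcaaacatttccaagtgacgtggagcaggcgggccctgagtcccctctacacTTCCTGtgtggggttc
Cd3g (chr9:44980432-44980681, reverse strand): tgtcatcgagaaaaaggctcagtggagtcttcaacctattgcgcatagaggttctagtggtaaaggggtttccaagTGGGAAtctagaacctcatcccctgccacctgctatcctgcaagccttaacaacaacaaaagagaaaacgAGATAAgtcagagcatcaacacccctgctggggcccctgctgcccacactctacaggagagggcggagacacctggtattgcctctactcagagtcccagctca
Cd247 (chr1:165788431-165788680, forward strand): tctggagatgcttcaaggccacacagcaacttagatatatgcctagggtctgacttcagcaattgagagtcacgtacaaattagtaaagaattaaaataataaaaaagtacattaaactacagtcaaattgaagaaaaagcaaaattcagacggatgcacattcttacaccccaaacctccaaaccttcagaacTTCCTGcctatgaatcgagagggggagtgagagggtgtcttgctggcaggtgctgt

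The Cd3d and Cd3g windows lie head to head, 854 bases apart. Cd3d held 1 ETS and 2 TCF1 and LEF1 matches, Cd3e 1 RBPJ and 1 ETS match, Cd3g 1 RBPJ and 1 GATA match, and Cd247 1 ETS match. No match overlapped another. Windows were found for 23 of the 34 genes, 36 windows in all. The RBPJ letters stood in 8 of these 36 windows (22.2%), against 21.6% of all 32851 mouse windows, and the ETS letters in 13 (36.1%), against 25.7%. The letters of TCF1 and LEF1 stood in 5 (13.9% against 13.8%), of the E-box in 5 (13.9% against 13.0%), of GATA in 3 (8.33% against 9.99%) and of RUNX in 2 (5.56% against 14.0%). These counts describe letters in a window and not binding.

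Both spots named Dll1 were read first. Spot 16 had log2 ratios of -1.30, -0.22 and -1.04 in m1, m2 and m3 thymus with no value in m4, and spot 20300, in the uncertain part, had -0.72, 0.29, -0.44 and 0.51 in m1 to m4. The first lay below 0 in every thymus measured and the second on both sides. Neither passed the test (adjusted p = 0.86 and adjusted p = 0.94). Spot 16 averaged 0.66 in spleen and 0.15 in brain, above 0 in both. The means of spot 20300 were -0.09 in thymus, -0.57 in spleen, -0.38 in liver and -0.35 in brain, below 0 in each organ, with adjusted p between 0.44 and 0.94.

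Against the wild-type pool, no T cell gene passed the test in the mutant thymus, and their ratios lay on both sides of 0. Of the 53 member spots tested, 0 passed an adjusted p of 0.05 (limma, Benjamini-Hochberg over all 20185 spots of the organ), with a background of 0% over all spots. At an unadjusted p under 0.05, 2 member spots were lower (3.77%, against 2.44% of all spots) and 0 were higher (against 0.684%). The mean log2 ratio was below 0.5 in size for 50 of the 53 spots (94.3%, against 90.8% of all spots). The median over the member spots was -0.02 and the median over all spots -0.01. The difference of these medians was 0.08 without m1 and -0.11 without m4. The smallest adjusted p among the member spots was 0.86. In simulated thymus data the same fit recovered 28 of 100 spots changed by a log2 ratio of 1 and 74 of 100 changed by 2.

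The mutant mice differed from each other. In m1 thymus the median log2 ratio of the member spots was -0.26, in m2 0.11, in m3 -0.12 and in m4 0.28, while the median of all spots lay between -0.02 and 0.03 in these mice. In m1, the array with the mutant in Cy5 gave -0.27 and the swapped array -0.30, and in m4 they gave 0.28 and 0.17. In m3 they gave -0.14 and -0.12. The sign for each of these 3 mice was thus the same whichever dye held the mutant RNA.

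Single spots showed the same. In m1, 32 of 54 member spots lay below 0 on both arrays (59.3%, against 28% of all spots) and 5 above 0 on both (9.26%, against 26.6%). In m4, 33 of 53 lay above 0 on both (62.3%, against 25.1%) and 6 below 0 on both (11.3%, against 29%). In m3, 20 of 54 lay below 0 on both (37.0%, against 26.9%) and 5 above (9.26%, against 22%). Over the member spots the swapped arrays of a mouse correlated with r = 0.46 in m1, r = 0.29 in m4 and r = -0.08 in m3, against 0.13, 0.06 and 0.03 over all spots. Spots share the RNA and the slide, so these are descriptions of single animals, with no test. Of the 3 pairs of mice with both arrays, m4 was above m1 with both dyes in 38 of 53 spots (71.7%, against 27.9% of all spots), m4 above m3 in 31 of 53 (58.5%, against 28.3%) and m3 above m1 in 22 of 54 (40.7%, against 24.6%).

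**Figure D1:**
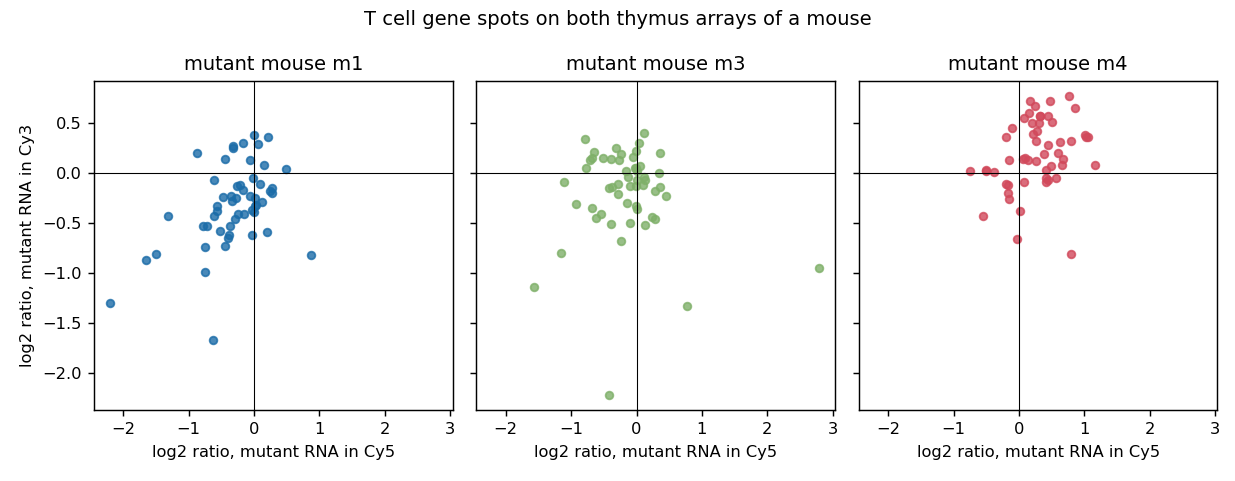
Each point is 1 T cell gene spot in thymus, with its log2 ratio (mutant over wild-type pool) on the array with the mutant RNA in Cy5 on the horizontal axis and on the dye-swapped array on the vertical axis, for m1, m3 and m4. In m1 32 of 54 spots lie to the lower left of the crossing of both 0 lines, and in m4 33 of 53 lie to the upper right.

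These counts depended on the naming. At the probe numbers as listed, without the displacement, 11 of 54 spots lay below 0 on both m1 arrays (20.4%) and 15 of 54 above 0 on both m4 arrays (27.8%). Among spots up to 3 places from a member, 37.2% lay below 0 on both m1 arrays and 30.4% above 0 on both m4 arrays. A stretch from spot 6000 to below 7200 held 20 of the 55 member spots, and its other spots gave 29.9% and 33.7%. Of the 8 member spots in the uncertain last part, 5 lay below 0 on both m1 arrays and 0 above, and on the m4 arrays 4 lay above 0 on both and 0 below. Without them the counts were 27 of 46 below 0 in m1 and 29 of 45 above 0 in m4.

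**Figure D2:**
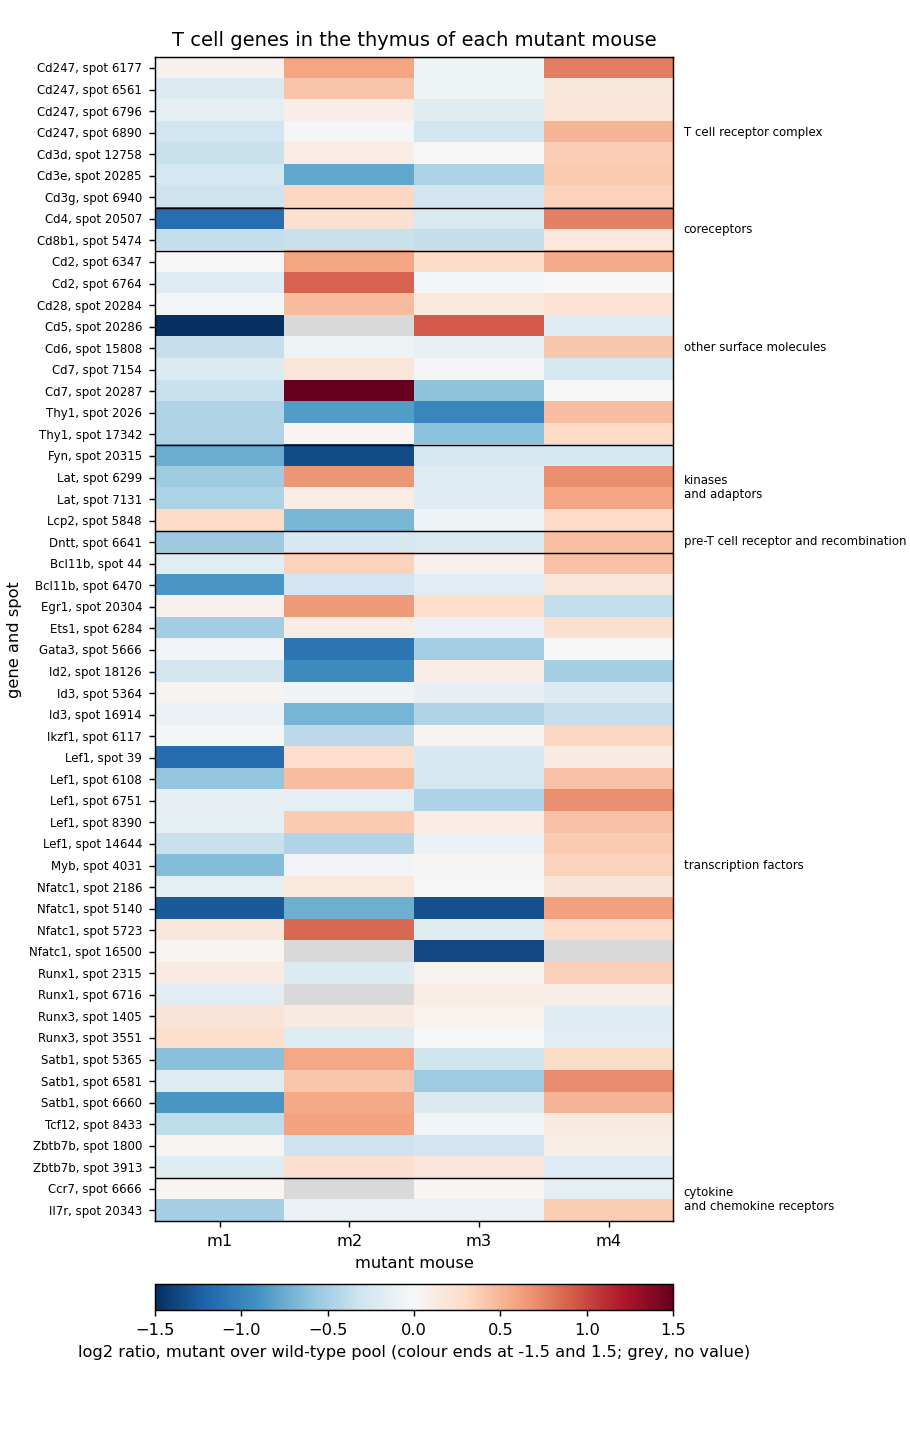
Rows are T cell gene spots grouped by role, columns are the 4 mutant mice, and colour is the log2 ratio of mutant thymus over wild-type pool (blue below 0, red above 0, grey without a value). Most spots of the receptor complex, the coreceptors, Lat, Lef1 and Satb1 are blue in m1 and red in m4.

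In the T cell receptor complex, all 4 genes were measured on 7 spots. All 7 lay above 0 in m4 thymus, and 6 lay below 0 in m1 and 6 in m3. Cd3d (spot 12758) had -0.33, 0.11, 0.01 and 0.37 in m1 to m4. Cd3g (spot 6940) had -0.31, 0.31, -0.29 and 0.35. Cd3e (spot 20285) had -0.26, -0.77, -0.48 and 0.40. The gain or loss against the pool thus changed sign between mice, and the means were 0.04 for Cd3d (SD 0.29), 0.02 for Cd3g (SD 0.36) and -0.28 for Cd3e (SD 0.50, n = 4 mice each). Of the 4 Cd247 spots, spot 6177 was among the 8 member spots with the smallest p, at 0.07, 0.59, -0.07 and 0.77 in m1 to m4 (mean 0.34, SD 0.40, adjusted p = 0.86). The other 3 had means between -0.03 and 0.08.

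The coreceptors also lay below 0 in m1 and above 0 in m4. Cd4 (spot 20507), the coreceptor of helper T cells, had -1.15, 0.23, -0.22 and 0.75 in m1 to m4, the widest range between m1 and m4 in this group. Cd8b1 (spot 5474), the beta chain of CD8, had -0.36, -0.34, -0.36 and 0.16. The alpha chain gene Cd8a had no named spot and is not reported.

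Among the other surface molecules, Cd2, Cd5, Cd6, Cd7, Cd28 and Thy1 had 9 spots. By the mean of both arrays, all 9 lay below 0 in m1 and 5 above 0 in m4. On both m1 arrays 4 of the 9 lay below 0 (against 28% of all spots), and on both m4 arrays 5 above 0 (against 25.1%). Thy1, a surface marker of mouse thymocytes, had -0.45, -0.83, -0.98 and 0.47 at spot 2026 and -0.45, 0.03, -0.62 and 0.30 at spot 17342. Both spots were lower in m1 and m3 and higher in m4. The mean at spot 2026 was -0.45 (SD 0.65, adjusted p = 0.86). Cd2, an adhesion molecule of T cells, had -0.01, 0.60, 0.28 and 0.56 at spot 6347, a mean of 0.36 (SD 0.28, adjusted p = 0.86), and a mean of 0.16 at spot 6764. Cd6, a receptor related to the inhibitory receptor Cd5, had -0.34, -0.07, -0.12 and 0.40. The costimulatory receptor Cd28 had -0.03, 0.47, 0.16 and 0.22 (mean 0.21, SD 0.21). Cd5 and the second Cd7 spot, both from the uncertain part, had SDs of 1.34 and 1.79, and Cd7 rested there on 3.23 in m2.

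Of the kinases and adaptors, Lat, Lcp2 and Fyn were measured. Lat, the membrane scaffold on which the receptor signal assembles, had -0.53, 0.66, -0.19 and 0.69 at spot 6299 and -0.47, 0.11, -0.20 and 0.59 at spot 7131, so that its spots had the same signs in every mouse. Lcp2, the adaptor SLP-76, had 0.29, -0.69, -0.07 and 0.28. Fyn (spot 20315), a kinase of the Src family, had the smallest p of all member spots in thymus, with -0.74, -1.35, -0.26 and -0.24, below 0 in 4 of 4 mice (mean -0.65, SD 0.52, adjusted p = 0.86). Its name is uncertain. Spots below 0 in every mouse made up 3 of 53 member spots (5.66%, against 8.08% of all spots), and spots above 0 in every mouse 0 (against 6.45%).

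Dntt, the polymerase that adds bases at receptor gene joints and is expressed in immature thymocytes, was the only recombination gene measured. It had -0.55, -0.24, -0.23 and 0.45 in m1 to m4. Its values on the arrays with the mutant in Cy5 and in Cy3 were -0.52 and -0.58 in m1, and 0.24 and 0.67 in m4.

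The 16 transcription factors had 30 spots, of which 28 were tested. Satb1, a chromatin organizer of thymocytes, had 3 spots that shared their signs: -0.62, 0.58, -0.30 and 0.28 at spot 5365, -0.20, 0.42, -0.54 and 0.70 at spot 6581, and -0.88, 0.57, -0.22 and 0.51 at spot 6660. All 5 Lef1 spots lay below 0 in m1, between -1.16 and -0.12, and above 0 in m4, between 0.12 and 0.69. Lef1 binds DNA beside Tcf7 at genes of the T lineage. Ets1, which early T cell development needs, had -0.52, 0.12, -0.09 and 0.26, and Myb, a factor of immature blood cells, had -0.66, -0.04, 0.02 and 0.34.

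Bcl11b, on chromosome 12, is the factor that fixes commitment to the T lineage. In thymus, spot 44 had -0.17, 0.34, 0.06 and 0.44 (mean 0.17, SD 0.28, adjusted p = 0.86) and spot 6470 had -0.87, -0.29, -0.17 and 0.18 (mean -0.29, SD 0.44, adjusted p = 0.86). The spots ranked m1 lowest and m4 highest alike but lay on opposite sides of 0 on average. In spleen, spot 44 had 0.24, -0.05 and 0.02 in m2 to m4 and spot 6470 had -0.06, 0.15 and 1.75, with no value in m1. In liver the values in m1 to m4 were -0.13, -0.30, 0.45 and 0.06 at spot 44, and 0.09, -0.03, 0.83 and 0.44 at spot 6470. In brain they were 0.36, 0.51, 0.28 and -0.09, and -0.43, -0.25, -1.20 and 0.31. No organ gave the 2 spots a shared direction beyond the spread of the mice.

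Id2 and Id3 encode inhibitors that hold E proteins such as Tcf12 and Tcf3 away from DNA. Id3 had -0.08, -0.69, -0.45 and -0.35 at spot 16914, below 0 in 4 of 4 mice (mean -0.39, SD 0.25, adjusted p = 0.86), and a mean of -0.09 at spot 5364. Id2 had -0.28, -0.96, 0.11 and -0.49 (mean -0.41, SD 0.44, adjusted p = 0.86). Gata3, which T lineage entry and the CD4 lineage need, had -0.04, -1.10, -0.52 and -0.01 (mean -0.42, SD 0.51, adjusted p = 0.86), so that its low values came from m2 and m3. Nfatc1, a calcium-dependent factor downstream of the receptor, had -1.26, -0.73, -1.32 and 0.62 at spot 5140 (mean -0.67, SD 0.90, adjusted p = 0.86), against means of 0.05 and 0.29 at spots 2186 and 5723. Runx3, a factor of CD8 cells, lay at -0.18 and -0.15 in m4 and at 0.19 and 0.26 in m1, the opposite of the receptor complex. Runx1, Ikzf1, Tcf12, Egr1 and both spots of Zbtb7b, the factor of the CD4 lineage, had means between -0.12 and 0.15. Tcf3 had no thymus value in any mouse.

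Il7r, the receptor of a survival factor of early thymocytes, had -0.50, -0.10, -0.10 and 0.38, and Ccr7, which guides mature cells in the thymus, had 0.03, 0.03 and -0.15 in m1, m3 and m4. Genes without a named spot were Cd8a, Cd27, Lck, Zap70, Themis, Sh2d1a, Ptcra, Rag1, Rag2, Tcf7, Ikzf3, Tox, Il2rg and Ccr9.

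Where a gene had several spots, their means could disagree. Of the 13 such genes, 8 had thymus means on both sides of 0, and the share over all genes with several spots was not taken. A list of 53 other genes of the receptor pathway gave 29 genes on 51 spots. In thymus 0 of its 49 tested spots passed the test, and at an unadjusted p under 0.05, 2 were lower (against 2.44% of all spots) and 0 higher (against 0.684%). Of its spots, 23 of 51 lay below 0 on both m1 arrays (against 28% of all spots) and 21 of 50 above 0 on both m4 arrays (against 25.1%), and its medians in m1 to m4 were -0.08, -0.13, -0.04 and 0.08.

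Markers of other cells also differed between the 4 thymi. Markers of erythroid cells (8 spots of 3 genes, 6 of them Hba-a1 spots) had medians of 0.30, 0.62, -1.06 and -0.75 in m1 to m4. In m4 7 of the 8 lay below 0 on both arrays (against 29% of all spots), and in m1 6 of 8 above 0 on both (against 26.6%). Lists of fat cell genes (19 spots of 13 genes) and of heart muscle genes (15 spots of 13 genes) were added after the values had been seen, and carry no test. The fat cell genes had medians of 0.11, 1.24, 0.28 and -0.67, and the heart muscle genes 0.48, 0.78, 0.02 and -0.65. Most fat cell spots were thus above the pool in m2 (3 of 19 below 0) and below it in m4 (16 of 19 below 0). In m4, 14 of 19 fat cell spots and 10 of 15 heart muscle spots lay below 0 on both arrays. In m1, 8 of 19 and 12 of 15 lay above 0 on both. Markers of neurons and glia had medians of 0.01, -0.10, -0.19 and -0.23 in m1 to m4, and 10 of their 14 spots also lay below 0 on both m4 arrays.

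Of these lists 3 genes are named here, chosen after their values were seen. Fabp4, a lipid carrier of fat cells, had 0.11, 1.50, 0.38 and -1.82 in m1 to m4, and Adipoq, the gene of adiponectin, -0.11, 1.24, 0.22 and -0.67. Tnnt2, the cardiac troponin T gene, had 1.57, 2.08, -0.14 and -1.24. The mouse with the highest T cell ratios, m4, thus had the lowest values of these 3 genes. In m4, 16 of 19 fat cell spots and 14 of 15 heart muscle spots lay below 0. Above 0 were Lipe (0.32 at spot 5742), Retn (0.21), Pparg (0.13, in the uncertain part) and Actc1 (0.17). In m2, T cell genes had a median of 0.11 beside high fat and muscle markers, on its 1 array. Medians of thymic epithelium (-0.13, 0.07, -0.26 and -0.04), of macrophages and granulocytes (0.11, 0.11, -0.13 and -0.08) and of B cells (0.06, -0.57, 0.12 and -0.04) lay closer to 0 apart from B cells in m2. Of the thymic epithelium spots, 7 of 14 lay below 0 on both m1 arrays (against 28% of all spots) and 2 above. On both m4 arrays 6 of 13 lay above 0 (against 25.1%) and 4 below. The part of these other cells in the T cell ratios was not tested. Ratios give no level of any marker, and fewer T cells and less RNA per T cell cannot be told apart in such samples.

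**Figure D3:**
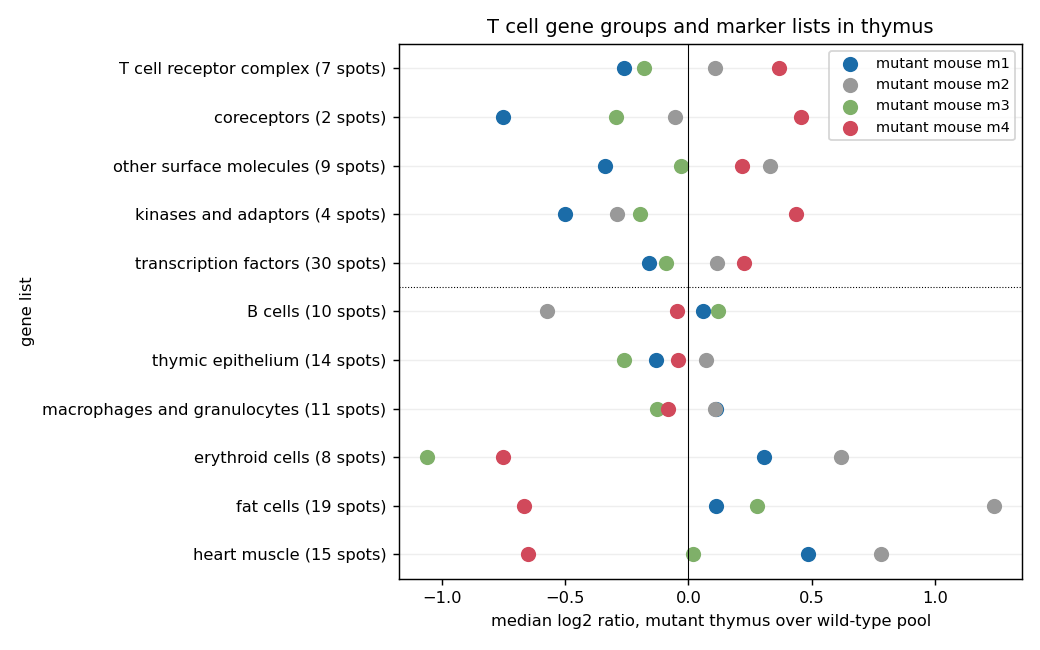
Points are the median log2 ratio (horizontal axis, mutant thymus over wild-type pool) of each gene list in each mutant mouse, with the T cell groups above the dotted line and marker lists of other cells below it. The red points of m4 lie at 0.22 to 0.46 for the 5 T cell groups plotted and at -0.75, -0.67 and -0.65 for erythroid, fat cell and heart muscle genes.

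The mice took another order in the other organs, a difference that was not tested. The difference between the median of the member spots and that of all spots was -0.26, 0.07, -0.09 and 0.30 in m1 to m4 thymus. It was -0.37, -0.10, -0.01 and -0.06 in spleen, 0.00, -0.07, 0.05 and 0.10 in liver and -0.05, -0.07, 0.13 and -0.07 in brain. The low value in spleen came from m1, where 24 member spots had a value on both of its sparse arrays. Summed over the 4 mice of spleen, 26.2% of 183 member values lay below 0 on both arrays (against 22% of all values) and 23.5% above 0 on both (against 28%). In liver these shares were 20.5% and 25.7% of 210 values (against 21.7% and 23.5%), and in brain 18.8% and 23.0% of 191 values (against 21.1% and 25.9%).

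**Figure D4:**
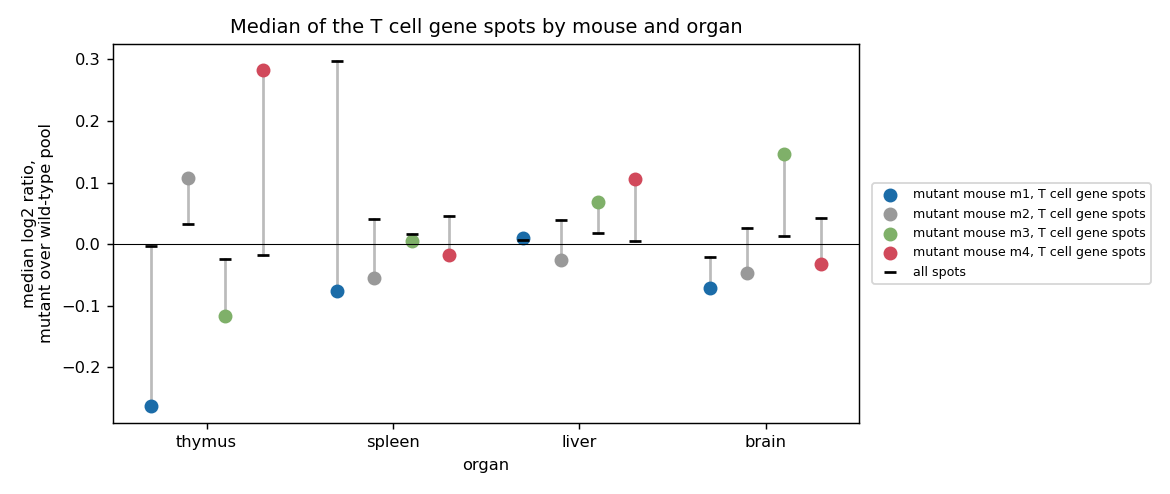
Coloured points are the median log2 ratio (vertical axis, mutant over wild-type pool) of the T cell gene spots in each mutant mouse, black ticks the median of all spots, for thymus, spleen, liver and brain. In thymus m1 lies at -0.26 and m4 at 0.28 with all spots near 0, and in m1 spleen all spots are raised to 0.30.

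In spleen, where mature T cells live beside B cells, 0 of 51 member spots passed the test (background 0%). At an unadjusted p under 0.05, 3 were lower (5.88%, against 5.1% of all spots) and 1 was higher (1.96%, against 5.57%). The smallest p belonged to Cd28, with -0.21, -0.90, -0.59 and -0.99 in m1 to m4, below 0 in 4 of 4 mice (mean -0.67, SD 0.35, adjusted p = 0.41). Its arrays with the mutant in Cy5 averaged -0.22 and the swapped arrays -1.12. Tcf3, an E protein, had -1.01, -1.07 and -0.22 in m2 to m4 (mean -0.77, SD 0.47, adjusted p = 0.44). Cd7 at spot 7154 had 2.35, 0.92, 0.28 and 0.23 (mean 0.95, SD 0.99, adjusted p = 0.46), with the high value in m1.

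In liver 0 of 53 passed (background 0%), and at an unadjusted p under 0.05, 1 was lower (1.89%, against 1.79%) and 2 were higher (3.77%, against 2.7%). Tcf3 had -2.07, -0.10 and -1.09 in m2 to m4 (mean -1.09, SD 0.99, adjusted p = 0.92). Runx1 at spot 2315 had 0.05, 1.56, 1.78 and 0.16 (mean 0.89, SD 0.91, adjusted p = 0.92), so that m2 and m3 stood apart from m1 and m4. Satb1 at spot 6660 had 0.09, 1.51, 0.48 and 0.41 (mean 0.62, SD 0.62, adjusted p = 0.92). Its dye orientations averaged -0.15 with the mutant in Cy5 and 1.39 with the mutant in Cy3. At spots 5365 and 6581, Satb1 averaged 0.06 and -0.42 in liver.

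In brain, an organ with few T cells, 0 of 50 passed (background 0%), and at an unadjusted p under 0.05, 1 was lower (2%, against 4.44%) and 4 were higher (8%, against 7.25%). Nfatc1 at spot 5723 had 1.04, 0.79 and 1.65 in m2 to m4 (mean 1.16, SD 0.44, adjusted p = 0.42). Dntt had 0.45, 2.85 and 1.14 in m1 to m3 (mean 1.48, SD 1.24, adjusted p = 0.42). Ikzf1, the lymphoid factor Ikaros, had 1.12, 0.42 and 0.70 in m1 to m3 (mean 0.75, SD 0.35, adjusted p = 0.42). All 3 were above 0 in each mouse measured and lacked a value in 1 mouse. At its spots 2186 and 5140, Nfatc1 averaged 0.09 and 0.08 in brain. Nfatc1 at spot 5723 had -0.09 in m2 with the mutant in Cy5 and 2.17 on the swapped array. Its orientation means were 0.91 in Cy5 and 1.19 in Cy3, those of Dntt 0.99 and 1.94, and those of Ikzf1 0.52 and 0.94.

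The brain result depended on the dye. With the mutant in Cy5 alone 0 member spots passed, and with the mutant in Cy3 alone 5 of 54 passed (9.26%, against 6.97% of all 20546 spots), a split of the arrays chosen after seeing the data. They were Cd247 at spot 6796 (1.48, adjusted p = 0.044), Ikzf1 (0.94, adjusted p = 0.045), Thy1 at spot 2026 (-1.02, adjusted p = 0.045), Runx3 at spot 3551 (-1.11, adjusted p = 0.044) and Lef1 at spot 6751 (-1.06, adjusted p = 0.048). With the mutant in Cy5 the same spots averaged -1.46, 0.52, 0.46, 0.18 and 0.06, so that 4 of the 5 had the opposite sign there. Over all spots the swapped arrays of a mouse correlated with r from -0.11 to 0.06 in brain, from -0.19 to -0.02 in liver and from -0.08 to 0.03 in spleen. Over the member spots r lay between -0.24 and 0.02 in brain, -0.21 and 0.12 in liver, and -0.13 and 0.15 in spleen. Median r over all spots was also taken between different mice with the mutant in the same dye. It was 0.23 in brain, 0.07 in liver, 0.10 in spleen and 0.06 in thymus. The swapped arrays of 1 mouse gave medians of -0.10, -0.09, -0.01 and 0.06 in the same organs.

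The last comparison set the thymus ratios against those of the other organs of the same mice. Member spots passing an adjusted p of 0.05 numbered 0 of 50 for thymus minus spleen, 0 of 52 for thymus minus liver and 0 of 50 for thymus minus brain (background 0% each). At an unadjusted p under 0.05, 2 were lower and 2 higher in thymus than in spleen (4% each, against 5.5% and 4.27% of all spots), 0 lower and 1 higher than in liver (0% and 1.92%, against 2.9% and 1.28%), and 4 lower and 1 higher than in brain (8% and 2%, against 7.03% and 3.65%). Cd28 averaged 0.21 in thymus and -0.67 in spleen (difference 0.88, SE 0.24, adjusted p = 0.43). In spleen Cd2 at spot 6347 had -0.25, -0.03 and -0.89 in m2 to m4. It averaged 0.36 in thymus and -0.39 in spleen (difference 0.75, SE 0.29, adjusted p = 0.48). Cd2 at spot 6764 averaged 0.16 in thymus and 0.09 in spleen (difference 0.07).

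In liver Cd2 had -0.79, -0.23, -0.66 and 0.32 in m1 to m4, a mean of -0.34, and the difference of thymus from liver was 0.70 (SE 0.28, adjusted p = 0.91). Bcl11b at spot 6470 averaged -0.29 in thymus and 0.33 in liver (difference -0.62, SE 0.28, adjusted p = 0.91). In brain Id2 had 0.87, 1.63, -0.27 and 0.93 in m1 to m4. Id2 averaged -0.41 in thymus and 0.79 in brain (difference -1.20, SE 0.40, adjusted p = 0.46), and Dntt averaged -0.14 in thymus and 1.48 in brain (difference -1.62, SE 0.53, adjusted p = 0.46). The 3 comparisons share the thymus values.

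**Figure D5:**
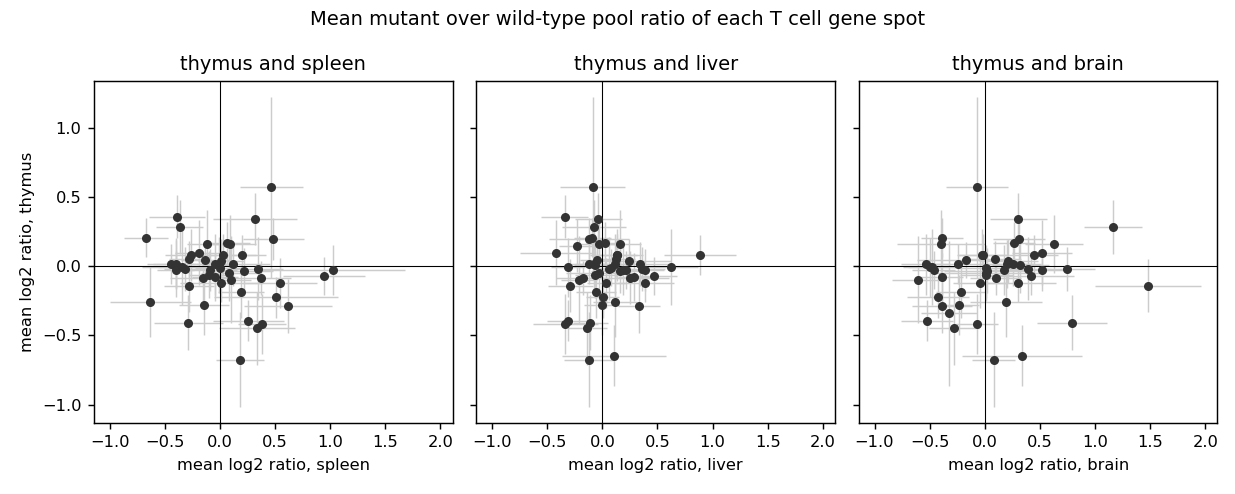
Each point is 1 T cell gene spot, with its mean log2 ratio (mutant over wild-type pool) in thymus on the vertical axis and in spleen, liver or brain on the horizontal axis, and bars of 1 standard error. Thymus means lie between -0.67 and 0.57, and the largest brain mean is 1.48 for Dntt.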

How the data were processed

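Per the labels, 20 µg of total RNA per sample was labelled with Cy3 or Cy5, and mutant RNA was hybridized with pooled wild-type RNA (4 animals listed, 6 in the protocol). The authors quantified scans with GenePix Pro, and the deposited values are log2 ratios, 1 for each spot of an array. Their normalization, filters and direction are not given in the sources used here. The naming was inferred from probes of the same gene (5048 pairs), whose mean correlation over arrays was 0.038 at a displacement of 11, 0.0049 at the numbers as listed and at most 0.011 at any other of the 601 displacements examined.

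Values beyond 12 in size were dropped. A mouse's value was the mean of its dye-swapped arrays, where neither was missing. From the single m2 thymus array the mean dye effect of m1, m3 and m4 was subtracted. Spots with at least 3 mice were tested against 0 (thymus minus another organ without pairing) with limma 3.58.1 in R 4.3.3. Adjustment was by Benjamini-Hochberg over all spots at 0.05. In simulated thymus data the fit recovered 28 of 100 spots changed by a log2 ratio of 1, and 74 of 100 changed by 2. Most changes of 1 were thus missed there. Tables and figures used Python 3.11.15, pandas 2.3.3, numpy 2.4.6 and matplotlib 3.10.9. Mice were the replicates, and the two-sided p-values leave out the spread of the pool. Organs of one animal pair by the animal in the labels; same-mouse deviations correlated between organs with r from -0.08 to 0.08 (24 correlations, 0 above 0.1).

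Values per mouse are given for Bcl11b in every organ, for the 8 member spots with the smallest p in thymus, 3 in each other organ and 2 in each comparison of organs. Members and lists were chosen with earlier results of these data known. Other members are given by role.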

Additional observations from a re-analysis of the deposited data

Results flagged for a closer look

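The median of the member spots less the median of all spots in brain stood out among 26 sets of 4 mice, because 1 mouse lay far from the others. It was 0.13 in m3 and -0.05, -0.07 and -0.07 in m1, m2 and m4, so that the gap to the nearest mouse was 0.88 of the whole range. Chance flags about 1 in 20 such sets. The m3 brain array with the mutant in Cy5 gave a member median of 0.29 and the swapped array 0.02.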

How the results depend on the processing

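In each of the 7 comparisons, 0 member spots passed under each alternative run, including leaving out each mouse (0 to 0 spots), arrays centred or also scaled, other filters and robust or unmoderated tests, except in brain with the mutant in Cy3 only, where 5 passed (0 in Cy5 only). Runs with 1 dye orientation alone were added after seeing the data, apart from the thymus medians. The smallest adjusted p of a member spot lay between 0.747 and 1.00 in thymus, 0.0586 and 0.783 in spleen, 0.276 and 0.999 in liver, and 0.044 and 0.754 in brain. With the mouse as a block, 0 member spots passed in each comparison of organs (smallest adjusted p = 0.589 for spleen, 0.941 for liver and 0.625 for brain), so the pairing changed no call. A spread shared by the organs called 256 of 18061 spots in spleen and 80 of 18061 in brain, and 0 of the 48 member spots tested in each.

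The difference of medians in thymus, -0.01, ranged over the mice left out from -0.11 (without m4) to 0.08 (without m1), and was 0.01 with the mutant in Cy5 only and -0.06 in Cy3 only. At the numbers as listed, the spots below 0 on both arrays numbered 11 in m1, 13 in m3 and 15 in m4, and those above 0 on both numbered 16, 11 and 15. Without the last part, those above 0 in m3 numbered 3. Both settings were chosen after seeing the data.

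Read as Cy5 over Cy3, 19 of 31 mean ratios of single spots changed sign. In thymus they were Id3 0.0923, Nfatc1 0.33, Cd247 -0.0587 and Bcl11b (spot 6470) 0.17. In spleen they were Cd28 0.45 and Bcl11b (spot 44) -0.73. In liver they were Runx1 -0.16, Satb1 -0.77 and Bcl11b -0.44 and -0.40, and in brain Nfatc1 -0.0303, Dntt -0.49, Ikzf1 -0.22 and Bcl11b -0.52 and 0.11. The thymus differences were -0.44 for Cd28 (spleen), -0.34 for Cd2 and 0.57 for Bcl11b (liver), and 0.42 for Dntt (brain). At the numbers as listed, where the value is that of another spot, 14 of 30 changed sign: Fyn 0.15, Id2 0.00758, Thy1 0.0797 and Bcl11b -0.18 in thymus, Tcf3 0.47 and Bcl11b -0.59 in spleen, Runx1 -0.41 and Bcl11b -0.22 and -0.35 in liver, Ikzf1 -0.43 and Bcl11b -0.36 and 0.42 in brain, and the differences of Bcl11b from liver (0.074) and of Id2 from brain (0.39). Bcl11b at spot 44 had -0.0462 in spleen and -0.0309 in liver on scaled arrays, -0.0595 in thymus and -0.063 in brain as the mean of both spots, and, over the mice left out, -0.0178 to 0.127 in spleen and -0.122 to 0.127 in liver. With the mutant in Cy5 only, 5 of 31 changed sign (Satb1 -0.15 and Bcl11b -0.42 and -0.069 in liver, Bcl11b -0.66 in spleen and -0.25 in brain), and in Cy3 only, 1 did (Gata3 0.005 in thymus). Of these single spots, Ikzf1 in brain passed the test in Cy3 only (adjusted p = 0.045), and the others passed under none of the settings run. Depth and signal over background, which would limit each value, are unknown, and the cause of these changes of sign was not tested.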
